A study of Mus musculus with 32 samples.

Results

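The genes described here are the first steps of interferon-γ (IFN-γ) signalling in mouse dendritic cells (DC): Ifngr1, Ifngr2, Jak1, Jak2 and Ptpn2. Their open chromatin was followed through peak lists of 32 ATAC-seq libraries, an assay in which the Tn5 transposase cuts accessible DNA. A region was taken as a member when its midpoint lay in the body of 1 of these 5 genes. Between protein-coding genes, it was taken when 1 of the 5 was the nearest protein-coding gene within 50 kb. That gave 86 of 90465 regions: 16 at Ifngr1, 11 at Ifngr2, 20 at Jak1, 25 at Jak2 and 14 at Ptpn2. Of these, 52 lay in gene bodies and 34 between protein-coding genes, and nearness to a gene is no evidence of acting on it. When RefSeq genes of every type were counted, 65 regions were left to the members. Ifngr1 then had 14, Ifngr2 5, Jak1 17, Jak2 15 and Ptpn2 14.

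IFN-γ binds a receptor made of IFNGR1, the chain that binds the ligand, and IFNGR2, the chain that brings in the second kinase. JAK1 sits on IFNGR1 and JAK2 on IFNGR2, and both kinases are activated when the receptor assembles and pass the signal on by phosphorylation. PTPN2 is a phosphatase that removes phosphate from JAK1 and so damps the signal. In DC the pathway is known for raising antigen presentation and for IL-12 production.

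All cells were sorted from skin-draining lymph nodes. The migratory subsets, which reach the node from the skin, were migDC1, migDC2 and DN migDC, and the resident subsets were cDC1 and cDC2. In the floxed cohort every mouse, in both groups, carried floxed Ifngr1 alleles. The CD11cCREpos/IFNgr1flfl group (Cre-positive) also had Cre driven by CD11c, a marker of DC and of some other myeloid cells, and the CD11cCREneg/IFNgr1flfl group (Cre-negative) did not. Each genotype had 3 libraries of migDC2, DN migDC, cDC1 and cDC2 and 2 of migDC1. A separate set held 2 libraries of migDC2 from IFNgr1-/- mice (germline KO) and 2 from WT mice. The study asked whether signalling through IFNGR1 shapes DC maturation at the level of chromatin. The labels give no age, and they do not say whether replicates came from separate mice, so p-values measure the spread between these libraries, which may be technical.

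Lists held 44991 to 74975 peaks in the 16 migratory floxed libraries, 38455 to 69544 in the 12 resident libraries and 32649 to 42446 in the 4 germline libraries. Read depth is unknown. A region without a peak may be closed or may fall under the threshold of its list, and a peak found in a smaller share of cells cannot be told apart from one that is weaker in each cell. The titles form separate numbering series: 12 migratory libraries, among them every migDC1 library, carry a letter, whereas 4 migratory and all 12 resident libraries carry plain numbers. Values within the plain-numbered titles are therefore given beside the pooled ones. At start sites, Xcr1 was called in 4 of 4 migDC1 and 6 of 6 cDC1 libraries and in none of the other floxed subsets, Clec9a in 6 of 6 cDC1 libraries only, and Itgam in 1 of 4 migDC1 libraries and in all 6 of each other subset. The other measured lineage markers did not separate the lineages: Irf8, Tlr3 and Irf4 were called in every floxed library, and Cd209a, a cDC2 marker, in 0 of 4 migDC1, 1 of 6 migDC2 and 2 of 6 DN migDC libraries, against 5 of 6 cDC1 and 6 of 6 cDC2 libraries. Both measured migratory-DC markers, Fscn1 and Ccl22, were called in all 32 libraries and so do not separate the groups. Start sites of 3 NK cell genes, of Krt5, Ebf1 and Cd247 had no call in any library. Cd79a was called in 6 of 16 migratory libraries, 5 of them DN migDC, and in 3 of 12 resident ones, and Pax5 in 5 of 16, 4 of them DN migDC, and 1 of 12. Tcf7 had a call in 15 of the 16 migratory libraries and 2 of the 12 resident ones, Mertk in 13 and 5, Siglech in 9 and 12 and Ly6c2 in 14 and 12. Over the whole lists, 0 to 2 of 5 T cell and 0 to 2 of 3 B cell start sites were called per migratory library, against 0 to 3 and 0 to 2 per resident library, and their part in the results was not tested.

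Start-site sequence is shown for the 4 genes with a window to print, Ptpn2 being left out. Their start regions were called in all 32 libraries, and a summit position described later for Ifngr1 is placed against its window. The windows run from 250 bases before to 50 after the RefSeq start (GRCm38.p6, the coordinates of mm10). Capitals mark matches on either strand to the GC box GGGCGG, the CCAAT box CCAAT and the cyclic-AMP response element (CRE) TGACGTCA. They lie at chr10:19591699-19591998 (plus strand), chr16:91546809-91547108 (plus), chr4:101265174-101265473 (minus) and chr19:29251553-29251852 (plus).
Ifngr1: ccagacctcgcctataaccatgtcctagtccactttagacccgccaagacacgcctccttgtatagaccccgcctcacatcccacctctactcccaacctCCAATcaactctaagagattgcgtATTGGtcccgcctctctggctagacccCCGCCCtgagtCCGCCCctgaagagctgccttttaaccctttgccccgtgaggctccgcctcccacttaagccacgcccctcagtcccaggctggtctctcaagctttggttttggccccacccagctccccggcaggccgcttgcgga
Ifngr2: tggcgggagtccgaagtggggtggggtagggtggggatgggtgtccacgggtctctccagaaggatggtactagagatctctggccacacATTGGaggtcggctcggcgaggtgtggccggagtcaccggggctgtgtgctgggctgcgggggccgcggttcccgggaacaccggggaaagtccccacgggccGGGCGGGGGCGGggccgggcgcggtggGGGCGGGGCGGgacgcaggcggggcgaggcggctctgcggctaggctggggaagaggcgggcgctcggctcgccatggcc
Jak1: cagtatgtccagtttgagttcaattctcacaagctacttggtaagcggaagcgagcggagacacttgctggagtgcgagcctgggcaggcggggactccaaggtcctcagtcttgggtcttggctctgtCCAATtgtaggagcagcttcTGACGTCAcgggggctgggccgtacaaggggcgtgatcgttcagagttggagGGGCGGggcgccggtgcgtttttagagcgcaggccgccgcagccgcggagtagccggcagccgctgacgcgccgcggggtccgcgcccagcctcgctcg
Jak2: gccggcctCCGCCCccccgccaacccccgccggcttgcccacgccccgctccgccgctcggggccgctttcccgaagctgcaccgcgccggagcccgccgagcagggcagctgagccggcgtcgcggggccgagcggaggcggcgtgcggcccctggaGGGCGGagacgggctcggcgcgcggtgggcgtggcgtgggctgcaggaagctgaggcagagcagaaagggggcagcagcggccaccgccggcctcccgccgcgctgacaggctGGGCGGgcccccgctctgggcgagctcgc

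The GC content of the windows ran from 60.3% at Ifngr1 through 64.7% at Jak1 and 74.3% at Ifngr2 to 81% at Jak2. Ifngr1 had 2 GC boxes and 2 CCAAT boxes, Ifngr2 had 4 GC boxes, a pair of them overlapping by 1 base, and 1 CCAAT box, Jak1 had 1 of each and a CRE at positions −101 to −94, and Jak2 had 3 GC boxes and no CCAAT box. A GC box was in 35.7%, a CCAAT box in 37.4% and a CRE in 1.79% of 32851 windows of the same length at other RefSeq starts. None of the 4 windows held the letters of the IFN-γ-activated site GAS (TTCNNNGAA, in 8.3% of all windows) or of the ISRE core that IRF factors bind (in 3.44%). A match is a string of letters and not a site known to be used.

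The share of regions of these genes that differed in presence between migratory and resident DC was near that of all regions. None passed a test between Cre-positive and Cre-negative DC. Of the 86 regions, 21 (24.4%) were called in all 32 libraries, against 23.3% of all regions. Presence was tested where 3 or more of the 28 floxed libraries had a call and 3 or more had none, by a two-sided exact conditional test stratified by genotype, with Benjamini-Hochberg adjustment over every region tested and a threshold of 0.05. Of 56 member regions, 12 gained calls in migratory relative to resident libraries and 10 lost them. Among all 61445 regions tested, 25% gained and 15.1% lost calls. Within the plain-numbered titles, 7 member regions gained and 3 lost calls out of 39 tested, where 21.3% and 2.36% of 45981 regions did. Over the full lists, the direction differed between the genes. At Ifngr1, 7 of 10 tested regions were called less often and none more often. At Jak2, 7 of 16 were called more often and none less often. Jak1 had 2 more and 3 less of 13, Ptpn2 2 more and 0 less of 12, and Ifngr2 1 more and 0 less of 5. A longer list can hold more weak peaks, and on average 63.5% of all gene regions were called in a migratory library and 57.2% in a resident one.

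**Figure D1:**
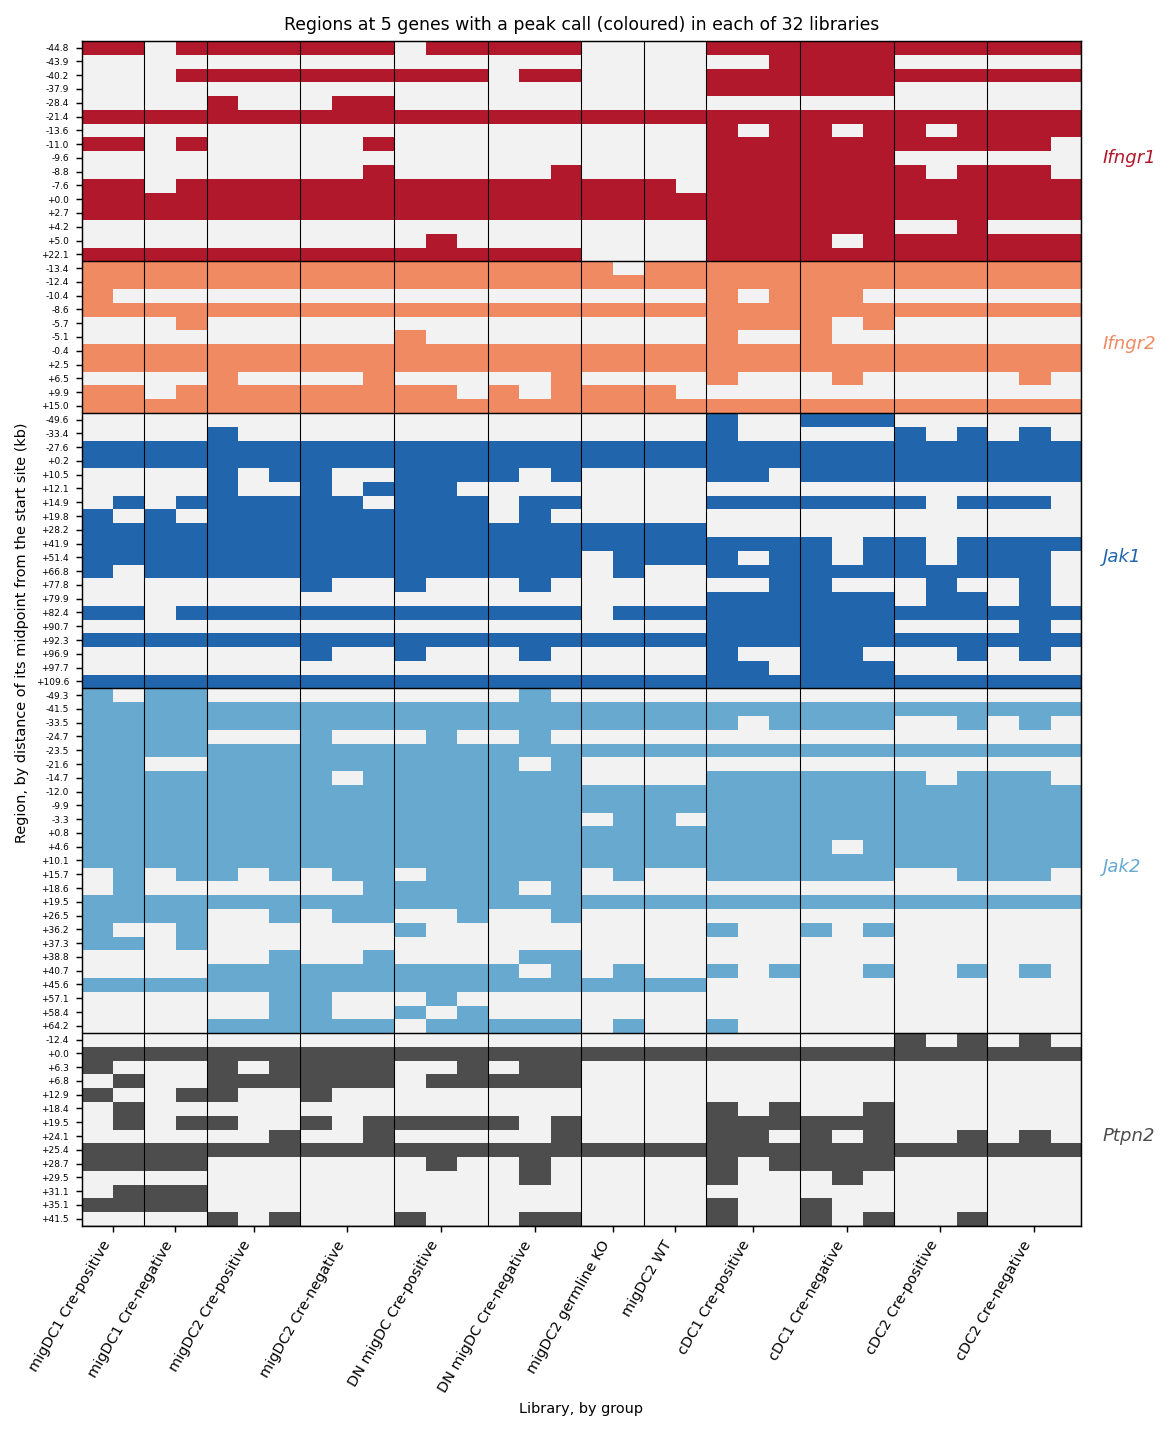
Each row is 1 of the 86 regions, by gene and by distance of its midpoint from the start site in kb (for Ptpn2 from the gene end of higher coordinate), each column 1 of the 32 libraries, and colour marks a peak call. Ifngr1 rows are filled for cDC1 more than for any other subset, Jak2 rows are filled more for migratory than for resident libraries, and Cre-positive columns resemble their Cre-negative neighbours.

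Ifngr1 (gene ID 15979, chr10:19591949-19610229) had fewer peaks in every migratory subset. The 16 migratory libraries held a lowest, median and highest count of 4, 7 and 10 of its 16 regions, and the 12 resident libraries 9, 12.5 and 15. The highest migratory count thus passed the lowest resident one, and every cDC1 library, at 13 to 15, lay above every other floxed library. By subset the means were 6.5 ± 1.73 in migDC1 (SD, n = 4), 7.83 ± 1.17 in migDC2 (n = 6), 7 ± 0.894 in DN migDC (n = 6), 14.2 ± 0.983 in cDC1 (n = 6) and 10.5 ± 1.22 in cDC2 (n = 6). The ranges of the 3 migratory subsets overlapped one another, and that of migDC2, 7 to 10, overlapped that of cDC2, 9 to 12. Over all genes, 57.1% of regions were called in migDC1, 66.4% in migDC2, 64.9% in DN migDC, 63.9% in cDC1 and 50.5% in cDC2 libraries, and the part of list length in these counts was not tested.

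The Ifngr1 peaks missing in migratory DC lay in the gene body near the start and in a stretch before it. At +5.01 kb from the start site (chr10:19596481-19597430) a peak was present in 1 of 16 migratory libraries, a DN migDC library, and in 11 of 12 resident libraries (adjusted p = 7.9e-05). Where present in resident libraries its width was 455 to 1418 bp. Next to it, at +4.22 kb (chr10:19595958-19596374), 0 of 16 migratory and 7 of 12 resident libraries had a call (adjusted p = 0.004). Of these 7, 6 were cDC1, and the cDC2 call was the 1418 bp peak that also covered the neighbour. Before the start, at −13.6 kb (chr10:19577609-19579183), no migratory library of 16 had a peak, against 9 of 12 resident libraries (adjusted p = 0.000356). That at −11 kb (chr10:19580681-19581276) was called in 4 of 16 migratory libraries, 3 of them migDC1, and 11 of 12 resident libraries (adjusted p = 0.004), and that at −8.8 kb (chr10:19582897-19583401) in 2 of 16 and 10 of 12 (adjusted p = 0.00199). With lists of equal length the −11 kb difference grew to −91.67 percentage points (adjusted p = 8.55e-06), and without DN migDC it was −51.67 points and did not pass (adjusted p = 0.0588). Further regions at −37.9 kb and −9.56 kb were called in 6 of 6 cDC1 libraries and in no other library. Of these 7 calls, 3 passed within the plain-numbered titles and 4 with lists of equal length, and the +5.01 kb call passed in both, with adjusted p = 0.0251 and 8.55e-06.

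The largest change in shape at Ifngr1 was past its end. At +22.1 kb (chr10:19613054-19614986) all 28 floxed libraries had a peak, so that presence did not differ, but the peak was short in migratory and long in resident DC. Summed width was 366, 368, 441 and 612 bp in migDC1, 300 to 777 bp in migDC2 and 284 to 786 bp in DN migDC, against 1228 to 1955 bp in cDC1 and 1169 to 2262 bp in cDC2. The groups did not overlap: the widest migratory peak had 786 bp and the narrowest resident one 1169 bp. The means were 410.4 ± 167.4 bp in migratory (SD, n = 16) and 1670 ± 340.2 bp in resident libraries (n = 12), a difference of −2.01 ± 0.155 (SE) in log2 width centred on each library (limma, adjusted p = 2.65e-11). The 4 plain-numbered migratory libraries had 777, 313, 310 and 284 bp, within the range of the lettered ones. Its rank by the deposited signal was also lower in migratory DC, and how far that signal grows with peak width was not tested. Placed among the regions called in all 28 floxed libraries, with 100 for the strongest signal, it had a percentile of 3.46 ± 4.85 in migratory and 36.6 ± 17 in resident libraries, a difference of −33.2 ± 4.38 points (limma, adjusted p = 2.94e-07), where 33.5% of 23390 regions ranked lower. Summits in migDC1, migDC2 and DN migDC lay at 22633 to 22704 bp from the start site, while 4 of 6 cDC2 libraries had theirs at 21431 to 21780 bp. That range covers those cDC2 libraries only and is not given as a trait of resident DC. Summit position at this region was not tested. None of the 4 germline libraries, KO or WT, had a peak there. Of the 23390 regions called in all 28 floxed libraries, 271 had no call in any germline library. In floxed migDC2 the peak lay at a median of 71.6% from the top of its list. The germline lists were shorter, at 32649 to 42446 peaks, and the part of list length was not tested.

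**Figure D2:**
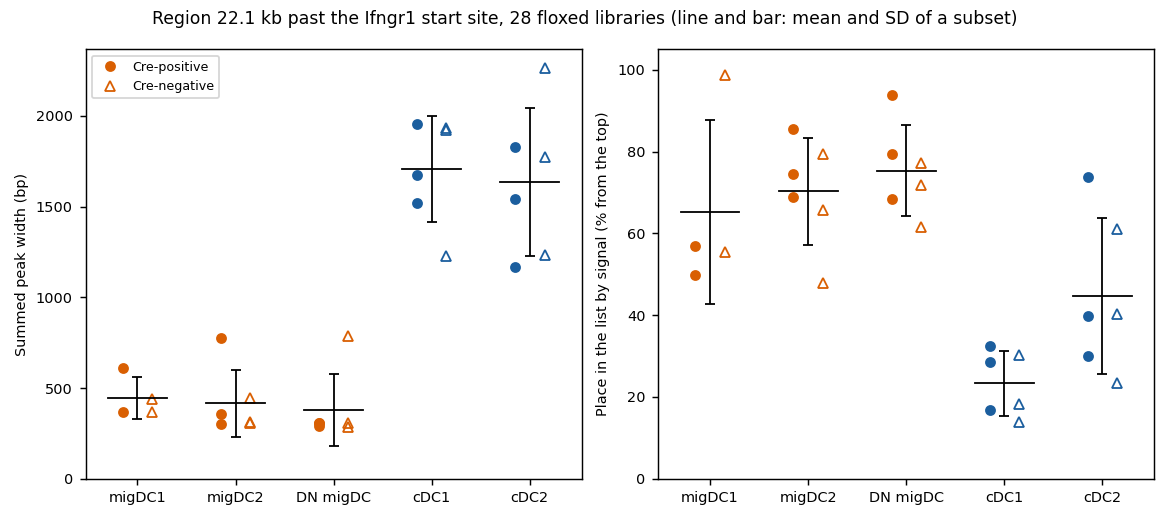
Summed peak width in bp (left) and place of the peak in its list by signal, in percent from the top (right), at the region 22.1 kb past the Ifngr1 start site, with 1 point per floxed library and the mean and SD of each subset. Every migratory library is at or below 786 bp and every resident library at or above 1169 bp.

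Among the regions called in all 32 libraries, rank was compared as the percentile of signal within those 21040 regions. The start region of Ifngr1 (chr10:19591054-19592900) was among the strongest everywhere, at 89.1 to 93.9 in migratory and 93 to 95.9 in resident libraries. Its mean percentile was 91.9 ± 1.11 in migratory (SD, n = 16) and 94.5 ± 0.971 in resident libraries (n = 12), a difference of −2.62 ± 0.577 points (limma, adjusted p = 0.000318). It did not pass when ranks were taken among all peaks of a list (adjusted p = 0.0646). At +2.66 kb (chr10:19594212-19595012) the percentile was 7.1 ± 3.41 in migratory and 19.8 ± 6.75 in resident libraries (difference −12.7 ± 1.84, adjusted p = 1.28e-06 by limma). The region at −21.4 kb (chr10:19569922-19571135) went the other way, with 34.3 ± 9.64 in migratory and 20.9 ± 9.34 in resident libraries (difference 13.4 ± 3.59, adjusted p = 0.00213 by limma), but within the plain-numbered titles the difference was 8.71 with adjusted p = 0.279.

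The summit in the Ifngr1 start region took mainly 2 positions. It lay from −115 to −113 bp in 11 of 16 migratory libraries and at −211 to −204 bp in 10 of 12 resident libraries, with a split point at −159 bp chosen after the values were seen. Upstream of that point were 3 of 16 migratory and 10 of 12 resident libraries, among them 6 of 6 cDC1 and 4 of 6 cDC2. The summit was 66.9 ± 17.6 bp further downstream in migratory libraries (limma, adjusted p = 0.00798; 17.6% of 21040 regions had a called summit difference in either direction), and 113 bp within the plain-numbered titles (adjusted p = 0.012). In the printed window, −113 falls between the CCAAT box at −126 to −122 and the GC boxes that start at −99.

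**Figure D3:**
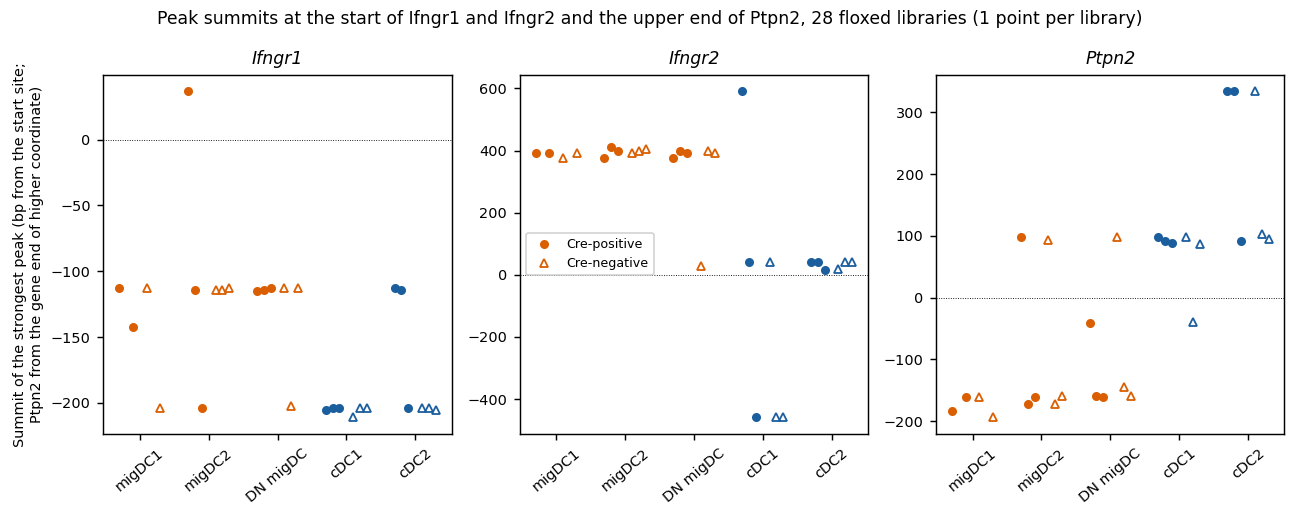
Summit of the strongest peak in the start regions of Ifngr1 and Ifngr2, in bp from the start site, and of the region at the gene end of higher coordinate of Ptpn2, with 1 point per floxed library. At Ifngr2, 15 of 16 migratory libraries lie at least 200 bp past the start site, against 1 of 12 resident libraries.

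Ifngr2 (gene ID 15980, chr16:91547059-91564007) kept a like number of peaks and changed in rank and summit. Migratory libraries had 6, 7 and 8 of its 11 regions called (lowest, median, highest) and resident libraries 6, 7 and 10, so that the groups overlapped fully at the low end. Its start region (chr16:91544863-91548453) was near the top of every list, at percentile 97.3 ± 0.526 in migratory and 97.6 ± 2 in resident libraries, a difference of −0.228 that did not pass (limma, adjusted p = 0.779). In width it differed by −0.161 ± 0.0463 log2 units (limma, adjusted p = 0.0068), with 2194 to 3511 bp in migratory and 2469 to 3535 bp in resident libraries, and −0.134 with adjusted p = 0.171 within the plain-numbered titles. Of the 21 regions, 3 were wider and 4 narrower in migratory libraries, where 21% and 17.2% of all 21040 were.

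The summit of the Ifngr2 start region lay 376 to 410 bp past the start in 15 of 16 migratory libraries and at 28 bp in the other one. In resident libraries it lay at 17 to 40 bp in 8 libraries, at −459 bp in 3 cDC1 libraries and at 592 bp in 1 cDC1 library. The mean difference was 413 ± 76.1 bp (limma, adjusted p = 0.000241). It was 336 bp within the plain-numbered titles, where it did not pass (adjusted p = 0.334). All 4 germline libraries had it at 391 to 398 bp.

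The strongest loss of rank at Ifngr2 was at −8.62 kb (chr16:91537835-91539046). Its percentile ranged from 17.2 to 47.9 in migratory and from 51.2 to 80.4 in resident libraries, without overlap. The means were 29.3 ± 7.26 and 64.1 ± 10.8, a difference of −34.8 ± 3.37 points (limma, adjusted p = 1.22e-09), and −36.7 within the plain-numbered titles (adjusted p = 0.000108). Within the gene, the region at +15 kb (chr16:91561159-91562880), near the last part of the gene body, ranked at 91.3 ± 3.33 in migratory and 84.6 ± 7.41 in resident libraries (difference 6.72 ± 2.09, adjusted p = 0.007 by limma). It separated the resident lineages: cDC2 libraries lay at 76.5 to 78.6 and cDC1 libraries at 91 to 92.3. Within the plain-numbered titles, which hold no migDC1 library, the migratory difference was 2.98 (adjusted p = 0.58). A region at +2.45 kb also ranked higher (difference 11.4 ± 3.41, adjusted p = 0.00538 by limma; 9.36 with adjusted p = 0.162 in the plain-numbered titles). The only region of Ifngr2 that differed in presence was at +9.87 kb (chr16:91556696-91557158), where 13 of 16 migratory libraries and none of 12 resident ones had a peak (adjusted p = 0.000194; 0.00996 in the plain-numbered titles, 0.158 with lists of equal length).

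Over the full lists of the 28 floxed libraries, Jak1 (gene ID 16451, chr4:101151974-101265282, minus strand) lost peaks in the distal part of its body, mostly relative to cDC1. It gained peaks closer to its start, and this layout did not hold in every setting. In migDC2 against cDC2, 0 of 9 tested Jak1 regions were called less often. The clearest gain was at +28.2 kb (chr4:101236784-101237361), where 16 of 16 migratory libraries and none of 12 resident ones had a peak (adjusted p = 2.07e-06), as had all 4 germline migDC2 libraries. Its width was 419 to 729 bp in migratory libraries, and it lay 24.5 to 42.4% from the top of their lists, so that it was not among the weakest peaks. It passed under every alternative tried. At +19.8 kb (chr4:101245291-101245613) 12 of 16 migratory libraries and none of 12 resident ones had a peak (adjusted p = 0.000537), placed 63 to 97.9% from the top of their lists, and no library kept it with lists of equal length. There were 3 lost regions. They lay at +79.9 kb (chr4:101185142-101185597), with 0 of 16 migratory and 9 of 12 resident libraries called (adjusted p = 0.000356), and at +90.7 kb (chr4:101174236-101174926), with 0 of 16 and 7 of 12 (adjusted p = 0.004), 6 of the 7 being cDC1, and at +97.7 kb (chr4:101167451-101167738), with 0 of 16 and 5 of 12 (adjusted p = 0.0247). The +97.7 kb call did not pass without cDC1 Cre-positive replicate 1, cDC1 Cre-negative replicate 1 or cDC1 Cre-negative replicate 3 (adjusted p = 0.0503, 0.0507 and 0.0508), nor without DN migDC (adjusted p = 0.087). Of the 5 Jak1 calls, 2 passed within the plain-numbered titles, both of them gains. With lists of equal length 2 passed, at +28.2 and +90.7 kb. In that setting +14.9 kb was also called less often (−43.75 percentage points, adjusted p = 0.0397) and +51.35 kb more often (52.08 points, adjusted p = 0.011). Without DN migDC a loss passed at +10.5 kb (−61.67 points, adjusted p = 0.0277). Within the plain-numbered titles a gain passed at +12.1 kb (75 points, adjusted p = 0.0408). In all, 9, 11 and 15 of 20 regions were called in migratory libraries and 7, 12.5 and 16 in resident ones, which overlap.

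Regions in the distal part of Jak1 that were called everywhere also ranked lower in migratory libraries. That at +92.3 kb (chr4:101172631-101173318) had a percentile of 23 ± 9.07 in migratory and 37.1 ± 10.5 in resident libraries (difference −14.1 ± 3.66, adjusted p = 0.00169 by limma) and was narrower by 0.216 ± 0.054 log2 units (adjusted p = 0.00216 by limma). That at +109.6 kb (chr4:101155157-101156210) had 16.9 ± 11.5 in migratory and 29.5 ± 4 in resident libraries (difference −12.5 ± 3.35, adjusted p = 0.00211 by limma). There, migDC1 stood at 3.99 ± 5.15, in migDC2 at 27.3 ± 8.81 and in DN migDC at 15.3 ± 6.4. Neither rank difference passed when ranks were taken among all peaks of a list (adjusted p = 0.113 and 0.142). The start region (chr4:101264276-101265806) was at 82.8 ± 2.38 in migratory and 81.7 ± 1.62 in resident libraries, a difference of 1.14 that did not pass (limma, adjusted p = 0.272).

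The Jak1 region at −27.6 kb (chr4:101291942-101293738) lies within Gm12796, which is not protein-coding. The region ranked lower in the migratory subset of each lineage, and lower in DC1 than in DC2. Its percentile was 7.58 to 46.5 in migDC1, 52.7 to 70.6 in migDC2 and 55.4 to 73.1 in DN migDC, against 45.9 to 53.7 in cDC1 and 75.1 to 80.1 in cDC2. The difference was −31.6 ± 5.12 points for migDC1 minus cDC1 and −15.2 ± 4.58 for migDC2 minus cDC2 (limma, adjusted p = 1.11e-05 and 0.00679). Between lineages it was −43.7 ± 5.12 points for migDC1 minus migDC2 and 27.4 ± 4.58 for cDC2 minus cDC1 (limma, adjusted p = 7.34e-07 and 3.31e-05). Migratory and resident libraries as whole groups differed by −11.7 ± 7.3 points, which did not pass (limma, adjusted p = 0.168).

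**Figure D4:**
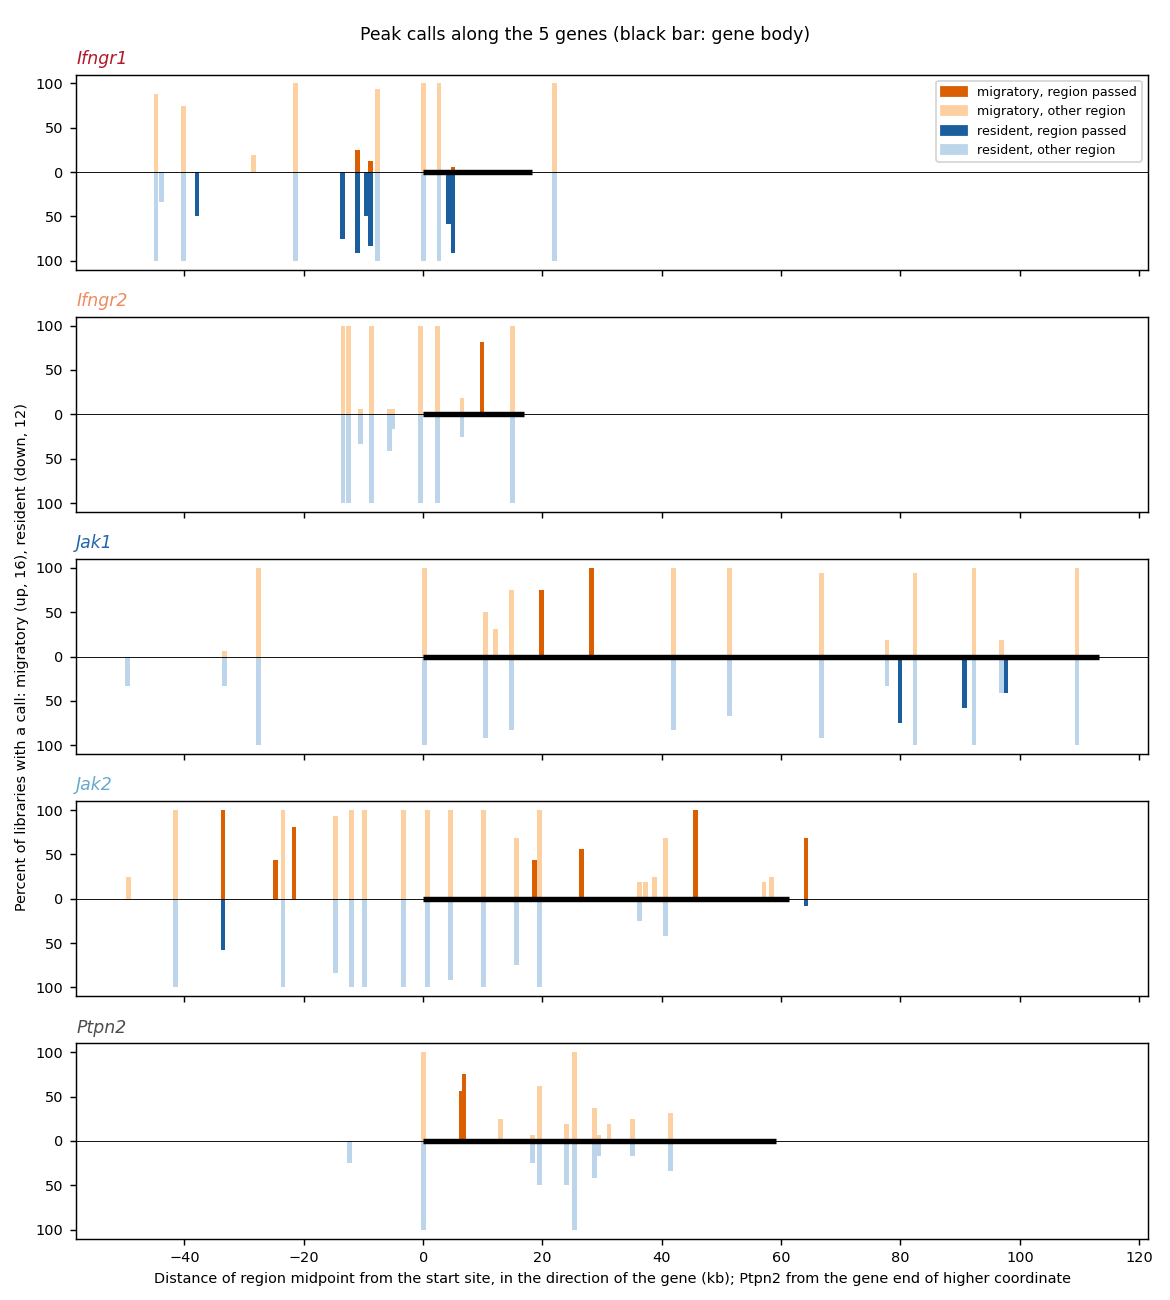
Percent of libraries with a peak call by distance of the region from the start site in kb, in the direction of the gene, with the 16 migratory libraries upward and the 12 resident libraries downward, the gene body as a black bar and regions that passed in dark colour. Passing regions point down at Ifngr1, up at Jak2, Ifngr2 and Ptpn2, and both ways at Jak1.

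Jak2 (gene ID 16452, chr19:29251803-29313095) had more peaks in migratory DC. Migratory libraries had 15, 18 and 20 of its 25 regions called (lowest, median, highest) and resident libraries 9, 12 and 15, so that the groups met only at 15. The means were 17.3 ± 1.5 in migDC1, 17.3 ± 1.97 in migDC2 and 18 ± 1.1 in DN migDC, against 12.8 ± 1.6 in cDC1 and 10.8 ± 1.84 in cDC2 (SD), and the ranges overlapped among the 3 migratory subsets and between the 2 resident ones. The clearest gain was deep in the gene body at +45.7 kb (chr19:29296699-29298202), where 16 of 16 migratory libraries, none of 12 resident ones and all 4 germline migDC2 libraries had a peak (adjusted p = 2.07e-06). There the widths were 248, 896, 911 and 1240 bp in migDC1, 878 to 1597 bp in migDC2 and 623 to 1253 bp in DN migDC. This call too passed under every alternative tried. At −21.7 kb (chr19:29229872-29230441) 13 of 16 migratory and 0 of 12 resident libraries had a call (adjusted p = 9.68e-05). That call passed within the plain-numbered titles, but with lists of equal length the difference was 6.25 percentage points. Just past the gene, at +64.2 kb (chr19:29315391-29316571), 11 of 16 migratory and 1 of 12 resident libraries had a call (adjusted p = 0.0105). The 11 were 6 migDC2 and 5 DN migDC libraries, and without DN migDC the call did not pass (adjusted p = 0.0588). At −33.5 kb (chr19:29217850-29218677) all 16 migratory and 7 of 12 resident libraries had a peak (adjusted p = 0.0247). That difference was 100 percentage points with lists of equal length (adjusted p = 1.56e-06) and did not pass without DN migDC (adjusted p = 0.087). A region at +26.5 kb was called in 9 of 16 migratory libraries, among them 4 of 4 migDC1, and 0 of 12 resident libraries (adjusted p = 0.0114). Its difference was 0 points within the plain-numbered titles, with lists of equal length and at a signal of at least 400. Of the 7 Jak2 calls, 2 passed within the plain-numbered titles and 3 with lists of equal length. With lists of equal length a loss also passed, at +15.7 kb (−41.67 percentage points, adjusted p = 0.0188). At a signal of at least 400 a further gain passed at +40.7 kb (62.5 points, adjusted p = 0.00486). The calls at −24.7 and +18.6 kb were each in 7 of 16 migratory and 0 of 12 resident libraries (adjusted p = 0.0297). Both were lost when any 1 resident library was left out.

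Inside Jak2, a pair of regions called everywhere rose in rank in every migratory subset. At +19.5 kb (chr19:29270904-29271735) the percentile was 70.6 ± 4.45 in migDC1, 55.6 ± 9.26 in migDC2 and 56.2 ± 9.94 in DN migDC, against 24.2 ± 4.28 in cDC1 and 17.9 ± 3.65 in cDC2. The lowest migratory library had 40.9 and the highest resident one 31.7. Over the groups the difference was 38.5 ± 3.2 points and 0.695 ± 0.0883 in log2 width (limma, adjusted p = 5.95e-11 and 3.36e-07). At +10.1 kb (chr19:29261388-29262397) the percentile ranged from 31.3 to 62 in migratory and from 10.8 to 22.7 in resident libraries, a difference of 30.2 ± 2.27 points and of 0.58 ± 0.0604 in log2 width (limma, adjusted p = 8.41e-12 and 9.84e-09). Within the plain-numbered titles these rank differences were 23.3 and 23 points (adjusted p = 5.56e-06 and 1.18e-05). The region at −41.5 kb ranked higher by 14.6 ± 2.33 and that at −23.5 kb lower by 8.67 points in migratory libraries (limma, adjusted p = 5.83e-06 and 0.0102), and neither passed within the plain-numbered titles. The start region (chr19:29250797-29254368) had 94.7 ± 2.57 in migratory and 93.4 ± 3.67 in resident libraries, which did not pass (difference 1.32, adjusted p = 0.348 by limma).

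Over the 21 regions called in all 32 libraries, 7 ranked higher and 6 lower in migratory than in resident libraries, where 26.6% and 34.9% of all 21040 did. The median difference was 1.14 points in these 21 and −1.28 points in all 21040. Within the plain-numbered titles 7 of 21 passed, and 35.9% of all regions. The share of the 21 that moved was thus near that of all regions, and what differed between the genes was where the changes lay.

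**Figure D5:**
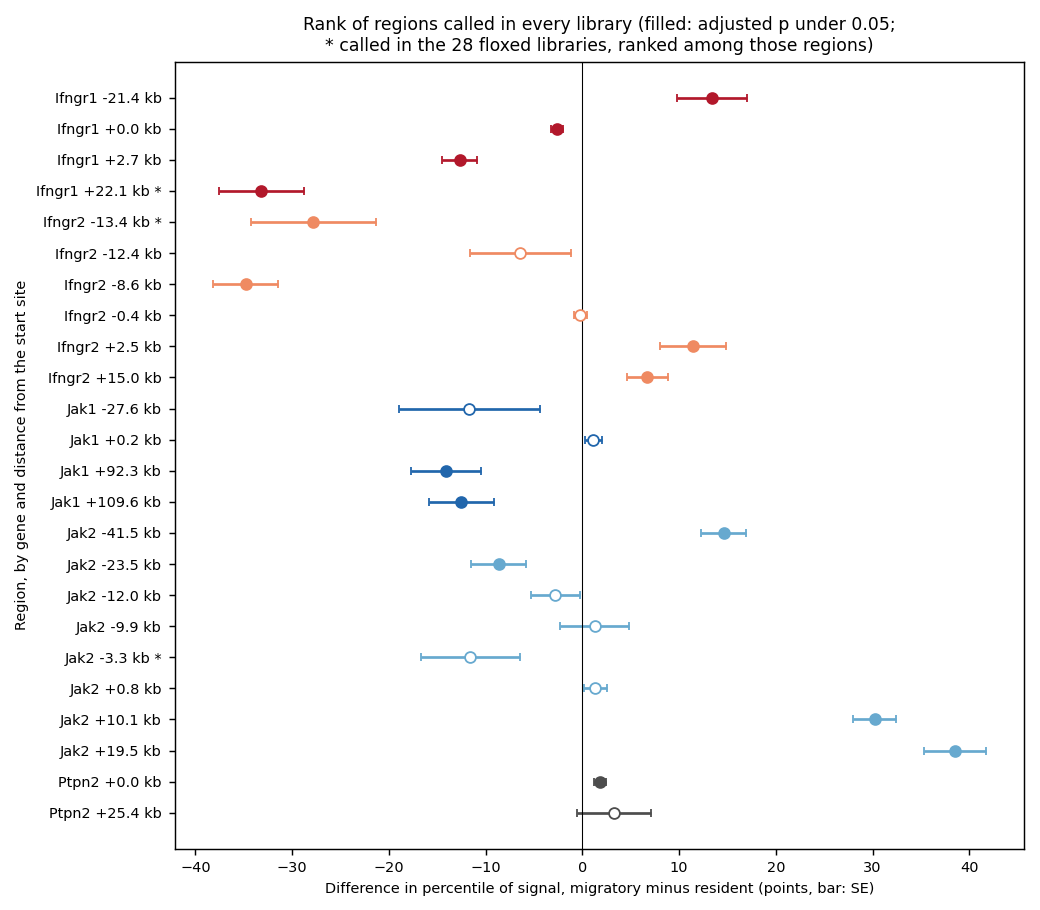
Difference in percentile of signal, migratory minus resident, with its SE, for the 21 regions called in all 32 libraries and 3 called in the 28 floxed ones (starred), by gene and distance from the start site. The largest rises are at Jak2 +19.5 kb (38.5 points) and +10.1 kb (30.2), and the largest falls at Ifngr2 −8.62 kb (−34.8) and Ifngr1 +22.1 kb (−33.2).

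Ptpn2 (gene ID 19255, chr18:67665501-67724632) differed in presence at 2 of 12 tested regions. Of its 14 regions, 3, 6 and 8 were called in migratory and 2, 4.5 and 9 in resident libraries, which overlap. A pair of neighbouring regions 6.84 and 6.33 kb from the gene end of higher coordinate (chr18:67717605-67717983 and chr18:67718075-67718525) was called in migratory libraries only, in 12 and 9 of 16 against 0 and 0 of 12 (adjusted p = 0.000637 and 0.0114). A single 920 bp peak of 1 migDC2 library spanned both. Neither passed with lists of equal length, and 1 of the 2 passed within the plain-numbered titles. The region at that gene end (chr18:67723579-67725647) was strong in every library, with a percentile of 95.1 ± 1.07 in migratory and 93.2 ± 1.37 in resident libraries (difference 1.84 ± 0.611, adjusted p = 0.011 by limma; 1.21 with adjusted p = 0.376 in the plain-numbered titles). Its summit lay outside the gene in 13 of 16 migratory libraries, mostly 144 to 194 bp out, and inside it in 11 of 12 resident libraries, at 87 to 103 bp or, in 3 cDC2 libraries, at 334 to 335 bp. The difference was 252 ± 43.3 bp (limma, adjusted p = 0.000101), but 80.8 bp and not past the threshold within the plain-numbered titles (adjusted p = 0.661). Among the 4 germline migDC2 libraries the summit was outside the gene in 1.

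Within a lineage, fewer libraries entered each test. In migDC1 against cDC1, 4 member regions gained and 6 lost calls out of 30 tested, where 18.5% and 16.8% of all tested regions did, and 0 passed once any 1 of the 4 migDC1 libraries was left out. The 4 were 3 at Jak2 and 1 at Jak1, and the 6 were 4 at Ifngr1 and 2 at Jak1. In migDC2 against cDC2, 8 gained and 2 lost calls out of 30, where 37.2% and 4.02% did, the 2 being at Ifngr1. Between the resident lineages, cDC2 against cDC1, 0 gained and 3 lost calls out of 26, where 2.16% of all gained and 13.4% lost calls. All 3 were present in 6 of 6 cDC1 and 0 of 6 cDC2 libraries: the Ifngr1 regions at −37.9 and −9.56 kb and a Ptpn2 region 19.5 kb from the gene end (adjusted p = 0.0321 each). Leaving out cDC1 Cre-positive replicate 2 raised this count to 11, and cDC1 Cre-negative replicate 2 to 8. Among migratory subsets, 0 of 20 regions passed between migDC1 and migDC2 (0% of all tested; 9 of 20 had an unadjusted p under 0.05, and the smallest adjusted p was 0.0594), and 0 of 17 between DN migDC and migDC2 (0% of all; 0 unadjusted). For rank, the migration difference itself differed between the DC1 and DC2 lineages at 7 of 21 regions (limma interaction of the signed differences, DC1 minus DC2: 4 positive and 3 negative), where 21.8% of all regions did.

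Cre-positive and Cre-negative libraries did not differ at any of these genes beyond the threshold. In presence, 0 of 56 member regions passed (exact conditional test stratified by subset; 0 with an unadjusted p under 0.05, the smallest 0.167), and 0% of the 61445 regions tested did. In rank, 0 of 21 passed (limma; 3 unadjusted, smallest adjusted p 0.801), where 0.038% of all regions did. In width 0 of 21 passed (3 unadjusted; 0.00475% of all), and in summit position 0 of 21 (1 unadjusted; 0% of all). At the Ifngr1 start, the percentile was 93 ± 1.98 in Cre-positive (SD, n = 14) and 93 ± 1.39 in Cre-negative libraries (n = 14), a difference of −0.0387 ± 0.541 points (limma, adjusted p = 1). At Ifngr1 +22.1 kb the width was 289 to 1955 bp in Cre-positive and 284 to 2262 bp in Cre-negative libraries, and the rank differed by −2.45 ± 3.75 points (limma, adjusted p = 0.996). The lowest unadjusted p at Ifngr1 was 0.0126 for rank at +2.66 kb (−4.07 ± 1.51 points among regions of the 28 libraries; limma, adjusted p = 0.77). The labels do not give which exon is flanked by loxP sites, so the peaks at Ifngr1 do not check the deletion.

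In the germline set the start regions of all 5 genes were called in both KO and both WT libraries. Ifngr1 had 4 and 4 regions called in KO libraries and 3 and 4 in WT libraries, Ifngr2 6 and 7 against 6 and 7, Jak1 6 and 9 against 8 and 8, Jak2 10 and 14 against 10 and 11, and Ptpn2 2 and 2 against 2 and 2. These counts overlapped or touched in each gene, and 2 libraries against 2 were not tested. The Ifngr1 start region ranked at 94.6 and 96.2 in KO and 93.3 and 94.8 in WT libraries, which overlap. The ranks of 2 regions, picked after their values were seen, did not overlap. Jak1 +109.6 kb was at 30.1 and 33.7 in KO against 11.6 and 17.2 in WT libraries. The Jak2 start was at 88.1 and 88.4 in KO against 83.7 and 84.6 in WT libraries. With 2 libraries against 2, ranks can fall apart without a difference between genotypes. The share of all regions that did so is not given here, so these 2 are not read as an effect of the KO. At Jak1 +109.6 kb the floxed libraries had 24.6 ± 10.3 with Cre and 20 ± 11.5 without (difference 4.59 ± 2.04, adjusted p = 0.918 by limma).

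Other genes of the pathway were counted from a list of 25. Of 187 tested regions, 65 gained and 20 lost calls in migratory relative to resident libraries, against the shares of 25% and 15.1% over all regions, and 0 passed between Cre-positive and Cre-negative libraries. Related receptor chains had 7 more and 9 less of 33 regions, the kinases Jak3 and Tyk2 0 more and 1 less of 1 (at Tyk2), downstream factors 35 more and 7 less of 89, and inhibitors 15 more and 2 less of 48. Irf1, a transcription factor induced by IFN-γ, had 9 of 14 tested regions called more often and none less often, led by chr11:53808638-53809713 in 16 of 16 migratory and 0 of 12 resident libraries (adjusted p = 2.07e-06). Nlrc5, which drives MHC class I genes, had 8 of 13 more often, and Ciita, which drives MHC class II genes, 4 more and 1 less of 12. Irf2, which opposes IRF1, had 8 more and 2 less of 24, and Irf8, a factor of the cDC1 lineage, 6 more and 4 less of 26. Ptpn1, a phosphatase close to PTPN2, had 5 more and 1 less of 16. Il10ra, the ligand-binding chain of the IL-10 receptor, had 1 more and 4 less of 11, and Il10rb, the other chain of that receptor, named after its values were seen, 0 more and 3 less of 5.

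The genes whose share of called regions followed each member most closely over the 28 floxed libraries were found among 5775 genes with at least 5 regions, after subtracting each library's share over all genes. For Ifngr1 these were Yaf2, Dop1b and Tex2, with Pearson r = 0.953, 0.937 and 0.935. For Jak2 they were Slc41a1, Gphn and Rab30, with r = 0.926, 0.925 and 0.915. For Ifngr2, Jak1 and Ptpn2 the closest were Xkr5 (0.759), Mef2d (0.748) and Tbc1d5 (0.793). The libraries fall into subsets, so these values describe a shared pattern over subsets and list lengths and carry no test.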

How the data were processed

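Omni-ATAC-seq libraries of sorted DC were aligned and their peaks called by the authors; the tools named in the submitters' processing notes are Bowtie2, deepTools and Genrich, with build mm10, while versions, settings and any Tn5 shift were not given in the sources used here. What the authors deposited is a narrowPeak list for each of the 32 libraries, in which the deposited signal starts just above 200. How far this signal grows with the width of a peak was not tested. Rank and width differences at a region, as at Ifngr1 +22.1 kb and Jak2 +10.1 and +19.5 kb, are therefore not independent findings. The −log10 p value deposited for each peak was used only to order ties in signal.

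Peaks on chromosomes 1 to 19 and X were merged into consensus regions of at least 100 bp covered by at least 3 of 32 libraries, 90465 in all with a median width of 569 bp. A library was called where a peak overlapped 50% of the region or of the peak. Member loci held 1626 peaks, 35 of them outside any region. Regions were placed by a RefSeq table of GRCm38.p6 against protein-coding genes. Exons were not used here, and Ptpn2 distances run from its gene end of higher coordinate. Depth is unknown, so no counting interval is given. Members, gene lists and tests were chosen with earlier results of these data known, and the summit test, the floxed-only set of shared regions, the interactions and the fit without DN migDC were added after seeing the data.

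Presence was compared by an exact conditional test with genotype or subset as strata, two-sided, adjusted by Benjamini-Hochberg over all tested regions. Rank (percentile of signal), log2 summed width centred on each library's median, and summit position were compared in regions called in all libraries with limma 3.58.1 in R 4.3.3, with the other factor as covariate. Python 3.11.15, numpy 2.4.6 and scipy 1.17.1 were used, and both tests were run on simulated data with planted differences. Simulated libraries were drawn independently, so the simulation cannot show how the p-values behave where libraries of a subset are alike. Regions named are those called in all 32 libraries or past a test, beyond 6 per gene those with the smallest p; the 8 of 25 other pathway genes with the most regions past the test were to be named, of which 1 is not reported here, and the 3 genes most alike by Pearson r. Alternatives were equal list length, a signal of at least 400, overlaps of 1 bp and of 80%, no strata or covariate, ranks among all peaks, genes of every type, plain-numbered titles only, and leaving out each library.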

Additional observations from a re-analysis of the deposited data

Results flagged for a closer look

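The change with migration differed between lineages at several regions, by the limma interaction of migDC1 minus cDC1 with migDC2 minus cDC2. In rank, the difference between the 2 changes was 21 points at Ifngr2 +2.45 kb, −8.26 at Ifngr2 +15 kb, −26.2 at Jak1 +109.6 kb, 13.2 at Jak2 −41.5 kb, 16.8 at Jak2 −9.88 kb, −7.58 at the Jak2 start and 3.67 at the Ptpn2 gene end. Among regions called in the 28 floxed libraries it was 35.3 at Ifngr2 −13.4 kb and −35.3 at Jak2 −3.32 kb. In log2 width it was −0.937 at Jak1 +109.6 kb and 0.566 at the Ptpn2 gene end, and in summit position 128 bp at Ifngr2 +15 kb. At Jak1 +109.6 kb, migDC1 lay 26.9 ± 3.49 points below cDC1 while migDC2 lay 0.776 ± 3.12 points below cDC2. At Jak2 −3.32 kb, migDC1 was at 19 ± 8.78 against 46.8 ± 8.73 in cDC1, and migDC2 at 19.6 ± 7.67 against 12.1 ± 3.96 in cDC2. Every migDC1 library carries a lettered title and every cDC1 library a plain one, so title series and migration cannot be told apart in that lineage.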

How the results depend on the processing

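Of the 22 presence calls between migratory and resident libraries, 9 were kept with lists of equal length, 10 with a signal of at least 400, 9 within the plain-numbered titles, 17 without the DN migDC libraries, and 22 with overlaps of 1 bp or 80% and without strata. Ifngr1 +5.01 kb, Jak1 +28.2 kb and Jak2 +45.7 kb were kept in each of these 7 settings. The count, including regions called only there, was 14 at a signal of at least 400 and 10 within the plain-numbered titles, and 19 to 23 when leaving out 1 library. For migDC1 minus cDC1 (10), it was 6 with equal list length, 5 at a signal of at least 400 and 0 to 12 when leaving out 1 library; for migDC2 minus cDC2 (10), 10 to 12. For cDC2 minus cDC1 (3) it was 8 without strata and 3 to 11 when leaving out 1 library. For migDC1 minus migDC2 (0) it was 2 with equal list length and 4 without strata. The Ptpn2 region 19.5 kb from the gene end, with a peak in 10 migratory (of 16) and 6 resident (of 12) libraries, turned to −41.67 percentage points with equal list length (adjusted p = 0.0188) and to −41.67 at a signal of at least 400 (adjusted p = 0.0237), and the cause was not tested. Within the plain-numbered titles, which leave 4 migratory libraries, 7 of the 13 rank calls, 4 regions for width (7 in the full fit, 3 of them kept) and 1 of the 6 summit calls passed; leaving out 1 library gave 13, 7 to 8 and 4 to 7. Ranks among all peaks of a list kept 9 of 13 rank calls. Both summit calls at Ifngr2 −8.62 kb and Jak1 +109.6 kb were lost without many single libraries. The counts for Cre-positive minus Cre-negative stayed at 0 in every setting run. Replicate numbers are shared by the lettered titles only, and same-numbered libraries correlated at −0.0165 to 0.16. With 2 lettered libraries per group, differently numbered ones take the same values with the opposite sign. These values therefore cannot show whether the numbers pair the libraries. A replicate block gave 0 calls for migDC1 minus migDC2 and 0 for DN migDC minus migDC2. Depth is unknown and limits weak regions most.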
